A study of Mus musculus with 7 samples.

Results

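A set of 10 genes that sense, destroy or prevent stray nucleic acid inside the cell were followed in mouse spleens with and without a blood-specific change of Brca1. They were chosen by name, as the rows of the deposited gene tables called Mb21d1, Tmem173, Tbk1, Trex1, Samhd1, Aim2, Ifi204, Rnaseh2a, Rnaseh2b and Rnaseh2c. These are 10 of the 24062 genes in the tables, and all 10 passed the filter on low counts, with 223 to 47193 counts in each library. Total RNA was sequenced from 3 enlarged spleens of Brca1∆/∆ mice, whose genotype is written Vav1-iCre;Brca1F22-24/F22-24, and from 4 Brca1+/+ spleens of C57BL6 mice. Ages were 2 to 3 months in both groups. The Vav1 promoter, which drives iCre, is active in blood stem cells and their offspring. The Brca1 allele has recombination sites around exons 22 to 24, so cells whose lineage never used that promoter keep the allele uncut. The labels give 1 library per spleen and do not say how mice were paired or matched. A p-value here reflects only how these spleens vary. Recombinase, altered allele, enlarged spleen and any difference in strain background go together in the mutant group and cannot be told apart.

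Cytosolic DNA is a danger signal. Mb21d1, now named cGAS, binds it and makes the messenger cGAMP, which activates Tmem173, now named STING, on the endoplasmic reticulum; the kinase Tbk1 then switches on interferon genes. Aim2 and Ifi204 are DNA-binding members of the PYHIN family, and Aim2 builds an inflammasome. Trex1 degrades cytosolic DNA, Samhd1 breaks down deoxynucleotides, and the 3 subunits Rnaseh2a, Rnaseh2b and Rnaseh2c form RNase H2, which cuts RNA out of RNA-DNA hybrids and removes ribonucleotides built into DNA. Inherited loss of Trex1, Samhd1 or an RNase H2 subunit causes an interferon disease in people, Aicardi-Goutières syndrome, and the cGAS pathway is studied in BRCA1-deficient cells because broken chromosomes can leave the nucleus.

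The genes did not move as one. All 3 RNase H2 subunits and the sensor Mb21d1 rose in mutant spleens, and Tmem173, Trex1 and Samhd1 fell. Tbk1, Aim2 and Ifi204 were not called. Calls are an adjusted p under 0.05 from edgeR's quasi-likelihood test over all 15188 tested genes. Of those genes 57.4% were called in either direction, beside 7 of the 10 members; 28.5% were called higher and 28.9% lower, beside 4 and 3 of the 10 members. The members thus changed at a share near that of all genes, and what follows is about which members moved, which way and how far. With library size alone as the scale, 3152 genes were called higher and 5122 lower (4334 and 4390 with TMM), and the median gene shifted to -0.26. The groups did not overlap for 7 of the 10 members, 4 higher (29.2% of all tested genes) and 3 lower (32.6%). The median log2 fold change, mutant minus wild type, was -0.25 over the members and -0.02 over all tested genes.

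Libraries held 30660980 to 51680976 counts in mutant and 26889712 to 63612532 in wild-type spleens. Levels are given as CPM, the read count divided by library size and TMM factor. Brca1 itself, summed over the whole gene, had 67.5, 47.1 and 42.7 CPM across mutants, against 46.2, 72.8, 15.7 and 20.2 CPM in wild type; a count over the gene does not test the loss of exons 22 to 24. Cell type markers differed widely. All 12 B cell markers fell, and their summed level was 43.9 to 254 CPM in mutant and 4611 to 6154 CPM in wild-type spleens. Monocyte and macrophage markers fell in 11 of 15 tested (292 to 1538 CPM summed in mutant, 2822 to 3621 in wild type) and dendritic cell markers in 9 of 12 with 1, Ccr9, higher (188 to 340 CPM summed in mutant, 1529 to 2040 in wild type). Immature T cell markers rose in 10 of 12, with 1, Cd1d1, lower (2960 to 6298 CPM summed in mutant, 502 to 585 in wild type). Markers of dividing cells rose in 16 of 20 (8568 to 9622 CPM summed in mutant, 1261 to 5343 in wild type). No marker of these lists was at 0 counts across a group. In whole tissue, fewer cells of a type and less RNA per cell cannot be told apart. The part of these shifts in the results below was not tested.

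**Figure D1:**
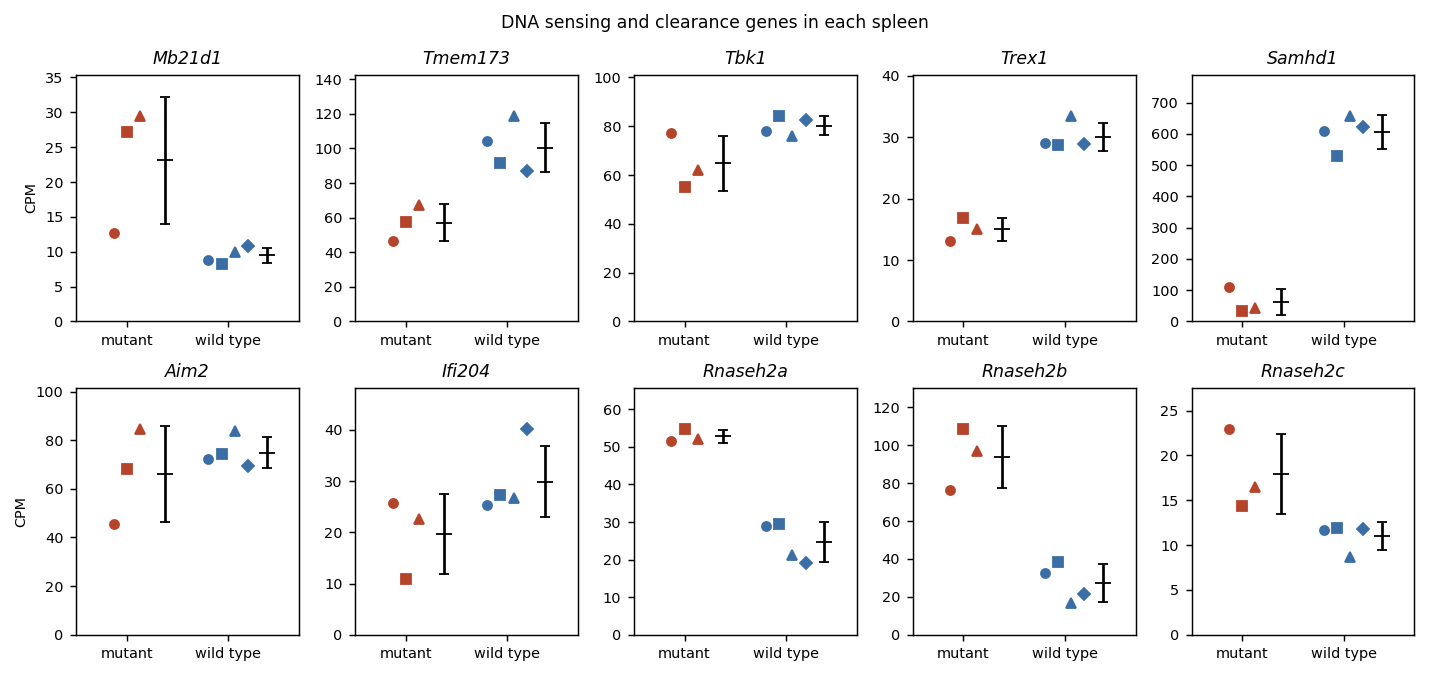
CPM of each gene (vertical axes, from 0) in the 3 mutant and 4 wild-type spleens; circle, square, triangle and diamond are spleens 1 to 4 of a group, and bars are mean ± SD. The groups are apart for 7 genes and overlap for Tbk1, Aim2 and Ifi204.

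Promoter sequence was at hand in the RefSeq table (build GRCm38.p6, the same assembly as mm10) for 7 of the 10 genes, and not for Tmem173, Ifi204 and Rnaseh2b. Sequences are shown upstream of 3 genes the results turn on: Samhd1, with the furthest move, Mb21d1, the sensor that rose, and Rnaseh2c, an RNase H2 subunit. They lie at chr2:157135266-157135346 (Samhd1), chr9:78443238-78443487 (Mb21d1) and chr19:5601623-5601872 (Rnaseh2c), on the minus, minus and plus strands, outside annotated exons. Capitals mark the match to TTCNNNGAA, the core of a GAS element, a site of interferon response.
Samhd1: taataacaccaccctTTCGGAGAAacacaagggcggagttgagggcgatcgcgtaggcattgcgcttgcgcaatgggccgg
Mb21d1: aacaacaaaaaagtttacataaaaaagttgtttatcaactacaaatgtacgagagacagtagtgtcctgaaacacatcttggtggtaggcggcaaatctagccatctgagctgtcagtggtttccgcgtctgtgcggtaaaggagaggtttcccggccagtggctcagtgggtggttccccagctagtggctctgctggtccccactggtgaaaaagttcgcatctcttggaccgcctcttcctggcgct
Rnaseh2c: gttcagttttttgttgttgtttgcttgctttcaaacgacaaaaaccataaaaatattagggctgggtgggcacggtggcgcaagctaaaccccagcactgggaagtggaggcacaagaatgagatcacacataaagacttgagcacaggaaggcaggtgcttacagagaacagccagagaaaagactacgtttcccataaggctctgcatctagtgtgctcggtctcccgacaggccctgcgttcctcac

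In windows of 250 bases before to 50 after the start, searched on both strands, TTCNNNGAA, which reads alike on both strands, was found in 2 of the 7 genes, Samhd1 and Rnaseh2a, and in 9.55% of all 27025 genes. In Samhd1 it began 235 bases before the RefSeq start. The interferon-response core, GAAA and GAAA with 2 free bases between them, was found in 0 of 7 (3.99% of all genes), and the E2F sites TTTGGCGC and TTTCCCGC in 0 of 7 (0.585% and 1.24%). E2F sites are bound by factors that time S phase genes. A match is a description of letters and not evidence of binding. The windows differed in CpG, with 37 in Tbk1, 29 in Samhd1, 23 in Rnaseh2a, 16 in Mb21d1, 9 in Rnaseh2c, 7 and 5 in the windows of Trex1 and 5 in Aim2, beside a median of 7 over all windows.

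Mb21d1 (chromosome 9, 78430517 to 78443147, minus strand, mm10), the DNA sensor itself, rose. Mutant spleens 1 to 3 gave 12.7, 27.1 and 29.5 CPM, against 8.87, 8.25, 9.95 and 10.8 CPM in wild-type spleens 1 to 4. Every mutant library was above every wild-type library, with mutant 1 close to them and the other 2 well apart. The means were 23.1 ± 9.10 CPM (SD, n = 3) and 9.46 ± 1.12 CPM (n = 4), and the log2 fold change was 1.29 (SE 0.30, edgeR adjusted p = 0.00757). The call was lost without wild-type spleens 1 and 2 together (1.15, adjusted p = 0.0767, range 0.000285 to 0.0767 over its alternatives). T cell markers, 9 of 11 higher, had list medians of 1.06, 2.07 and 1.98 log2 units above the wild-type mean in mutants 1 to 3. Immature T cell markers had 2.7, 3.79 and 3.62, and Mb21d1 had 0.42, 1.52 and 1.64. In wild-type 1 to 4 the T cell medians were 0.06, -0.14, 0.24 and -0.18, beside -0.09, -0.2, 0.07 and 0.19 for Mb21d1. The T cell medians of wild-type 2 and 4 were close, and their summed T cell levels were 848 and 849 CPM. Mb21d1 was lowest in wild-type 2 and highest in wild-type 4. The part of T cells in the rise was not tested.

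Tmem173 (chromosome 18, 35733677 to 35740554, minus strand), the receptor for cGAMP, moved the other way. It had 46.2, 57.5 and 67.6 CPM across mutants, against 104, 91.6, 119 and 87.0 CPM in wild type. The highest mutant lay below the lowest wild-type library. The log2 fold change was -0.81 (SE 0.18, adjusted p = 0.00621, edgeR), and leaving out 1 library gave -0.94 to -0.60.

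The balance of receptor to sensor therefore differed, and it does not depend on how libraries are scaled. Counts of Tmem173 were 3.64, 2.12 and 2.29 times those of Mb21d1 in mutants 1 to 3 and 11.7, 11.1, 11.9 and 8.07 times in wild type. The mean log2 ratio was 1.38 ± 0.42 in mutant and 3.40 ± 0.26 in wild-type spleens, a difference of -2.02 without overlap. The two-sided exact permutation p was 0.0571, the smallest that 3 against 4 samples allow, and 0.0857 adjusted over the 6 ratios tested, so no ratio in this design could pass 0.05.

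Tbk1 (chromosome 10, 121546455 to 121586794, minus strand), the kinase downstream of Tmem173, had 77.2, 55.0 and 62.0 CPM across mutants, against 77.8, 84.3, 75.9 and 82.7 CPM in wild type. Mutant 1 lay among the wild-type libraries and the other 2 below them. The log2 fold change of -0.31 (SE 0.15) was not called (adjusted p = 0.103, edgeR). It passed without mutant 1 (-0.37, adjusted p = 0.0278) and with library size alone as the scale (-0.55, adjusted p = 0.0251), over a range of 0.0251 to 0.316.

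Among partners of this step Ikbke and Irf3, like Tbk1, were not called, while the adaptor Tank, given below, was lower. Ikbke, the kinase closest to Tbk1, stood at 64.5 ± 14.4 CPM in mutant and 77.7 ± 10.3 CPM in wild-type spleens, and Irf3, the factor both kinases phosphorylate, at 73.9 ± 2.67 and 86.3 ± 12.3 CPM (n = 3 and 4). Neither passed (adjusted p = 0.254 and 0.211, edgeR). Of 29 tested genes of STING signalling, regulation and trafficking, 11 rose, 6 fell and 12 were not called, with a median log2 fold change of 0.08. Counts for this list and the lists below stand beside 28.5% higher and 28.9% lower among all tested genes. Banf1, which shields nuclear DNA from cGAS, rose to 266 ± 89.5 CPM in mutants, against 68.4 ± 8.28 CPM in wild type (1.96, SE 0.25).

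Slc19a1, a folate carrier that imports cyclic dinucleotides in human cells, rose by 1.72 (SE 0.22) and Ttll4, a glutamylase that modifies cGAS, by 1.09 (SE 0.15). Lower in the mutants were Traf3, an adaptor of the interferon arm (-1.47, SE 0.16), and Tank, an adaptor of Tbk1 (-0.69, SE 0.18). Enpp1, which destroys cGAMP outside the cell, fell to 7.56 ± 4.87 CPM in mutants, against 25.6 ± 1.21 CPM in wild type (-1.76, SE 0.41). Rhbdf2, which stabilises Tmem173, fell by 1.61, Nlrc3, which restrains it, by 0.54 and Stim1, which holds it in the endoplasmic reticulum, by 0.47 on the log2 scale. The number that rose was sensitive to single libraries, with 6 and 5 without mutants 2 and 3, 5 without each of wild-type 1, 2 and 3, and 7 without wild-type 4. With library size alone as the scale 5 rose and 8 fell, so the balance turned. Without wild-type spleens 1 and 2, 5 rose and 2 fell.

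Aim2 (chromosome 1, 173420603 to 173466036, plus strand) had 45.4, 68.0 and 84.6 CPM across mutants, against 72.1, 74.2, 83.9 and 69.3 CPM in wild type. The mutants lay below, just below and above the wild-type range. No difference was called (-0.18, SE 0.21, adjusted p = 0.486, edgeR), and without mutant 1 the value was 0.11 (adjusted p = 0.48, range 0.0997 to 0.785).

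Ifi204 (chromosome 1, 173747293 to 173766919, minus strand), from the same gene family, had 25.7, 10.9 and 22.7 CPM across mutants, against 25.3, 27.4, 26.8 and 40.2 CPM in wild type. Mutant 2 was low, wild-type 4 was high, and mutant 1 lay within the wild-type range. The log2 fold change was -0.60 (SE 0.32, adjusted p = 0.142, edgeR). It was -0.33 without mutant 2, -0.43 without wild-type 4 and -0.76 to -0.64 with any other library left out. PYHIN genes are close copies of each other, so reads may be shared and single values are uncertain. Counts of Aim2 were 1.77, 6.24 and 3.73 times those of Ifi204 in the mutants and 2.86, 2.71, 3.14 and 1.73 times in wild type, which overlap (log2 difference 0.44, exact permutation p = 0.40, adjusted p = 0.40). Without mutant 2 that difference was 0.01.

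In the list of inflammasome genes, 4 of 7 tested were called lower and 1 higher, with a median of -1.11. Casp1, the protease that the inflammasome activates, had 7.87, 5.88 and 0.748 CPM across mutants, against 46.5 to 50.9 CPM in wild type (-3.35, SE 0.67, adjusted p = 0.0042, edgeR). Gsdmd, the pore protein that Casp1 cuts, fell by 1.48 (SE 0.15) and Nek7, a partner of another inflammasome, by 0.63 (SE 0.15). Pycard, the adaptor between Aim2 and Casp1, rose to 56.2 ± 2.54 CPM in mutants, against 37.4 ± 3.18 CPM in wild type (0.59, SE 0.12). It was not called with library size alone as the scale, nor without wild-type spleens 1 and 2.

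Of 19 tested genes counted as other DNA sensors, 8 rose and 9 fell, with a median of -0.52. The 8 that rose were Hmgb1, Mre11a, Rad50, Dhx9, Dhx36, Polr3c, Polr3f and Polr3k. Hmgb1, an abundant chromatin protein, stood at 1826 ± 546 CPM in mutant and 409 ± 64.8 CPM in wild-type spleens (2.16, SE 0.24). Mre11a and Rad50, which bind broken DNA ends, rose by 1.04 and 0.83, the helicases Dhx9 and Dhx36 by 0.52 and 0.65, and the RNA polymerase III subunits Polr3c, Polr3f and Polr3k by 0.46, 0.51 and 1.09. Prkdc, a DNA end-joining kinase named after its value was seen, fell by 0.52 (SE 0.15).

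Among the 9 that fell were an endosomal sensor and 4 of 5 tested PYHIN genes. Tlr9, the endosomal receptor for CpG DNA, had 4.84, 3.03 and 0.260 CPM across mutants, against 78.1 to 83.6 CPM in wild type (-4.89, SE 0.80), and its chaperone Unc93b1 fell by 3.12 (SE 0.32). Zbp1, a sensor of left-handed nucleic acid, fell by 2.42 (SE 0.26), and Ifi203, a PYHIN gene, by 1.95 (SE 0.20). The other PYHIN genes of the list, named here after their values were seen, were Pyhin1 (-4.01, SE 0.67; 19.3 ± 15.1 CPM in mutant and 311 ± 37.1 CPM in wild-type spleens), Ifi205 (-4.10, SE 0.77) and Mndal (-1.58, SE 0.20), which fell, and Mnda (-0.68, SE 0.41), which was not called. Reads may be shared within this family too. With library size alone as the scale 4 of these 19 genes rose, and 4 without wild-type spleens 1 and 2.

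Trex1 (chromosome 9, 109057931 to 109059723, minus strand), the main exonuclease of cytosolic DNA, fell. It had 13.1, 16.9 and 15.1 CPM across mutants, against 29.0, 28.7, 33.5 and 28.9 CPM in wild type. Both groups were tight and far apart (log2 fold change -1.0, SE 0.16, adjusted p = 0.00145, edgeR). The next gene, Atrip, lies 23 bases away and rose (0.64, adjusted p = 0.0223).

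Set against the sensor whose ligand it removes, Trex1 had 1.03, 0.622 and 0.513 times the counts of Mb21d1 in the mutants and 3.27, 3.48, 3.36 and 2.68 times in wild type. The log2 ratio averaged -0.53 ± 0.52 in mutant and 1.67 ± 0.17 in wild-type spleens. The difference of -2.20 was the widest of the 6 ratios, without overlap (exact permutation p = 0.0571, adjusted p = 0.0857).

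Samhd1 (chromosome 2, 157097528 to 157135222, minus strand), which hydrolyses deoxynucleotides and starves reverse transcription, moved furthest. It had 112, 34.3 and 42.0 CPM across mutants, against 608, 530.1, 658 and 623 CPM in wild type. Mutant 1 was the highest of its group and still far below each wild-type library. The log2 fold change was -3.27 (SE 0.44, adjusted p = 0.000777, edgeR), and 4.51% of all tested genes had a value at or below it. Without mutant 1 it was -3.90.

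Samhd1 is known for high levels in myeloid cells. Relative to the wild-type mean it stood at -2.44, -4.14 and -3.85 log2 units in mutants 1 to 3, beside list medians of -1.30, -2.58 and -3.97 for monocyte and macrophage markers, -3.12, -4.26 and -6.35 for dendritic cell markers and -5.41, -4.53 and -8.10 for B cell markers. The part of these cells in the fall was not tested.

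In a list of genes for dNTP supply, which also holds genes that clear nucleotides, 7 of 11 were higher and 3 lower. The median was 1.42. Deoxynucleotides (dNTPs) are the substrate of Samhd1, and Dut and Dctpp1, which rose, also break nucleotides down, as Samhd1 does. Dut, which clears dUTP, had 243, 646 and 381 CPM across mutants, against 30.6 to 57.2 CPM in wild type (3.21, SE 0.37). Dctpp1, which clears modified cytosine nucleotides, rose by 2.81 (SE 0.21), and Nme1, a nucleotide kinase, by 2.01 (SE 0.17). Rrm2, the S phase subunit of ribonucleotide reductase, had 447 ± 59.8 CPM in mutant and 180 ± 142 CPM in wild-type spleens and was not called (1.31, SE 0.60, adjusted p = 0.0968, edgeR). Its lowest mutant library (378 CPM) lay above its highest wild-type library (357 CPM). Rrm1, another reductase subunit named after its value was seen, was called higher (2.07, SE 0.38).

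The other 3 called genes of that list were lower. Rrm2b, the p53-induced reductase subunit, fell by 1.06 (SE 0.20), and the mitochondrial kinases Tk2 and Dguok fell by 1.69 (SE 0.14) and 0.78 (SE 0.19).

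**Figure D2:**
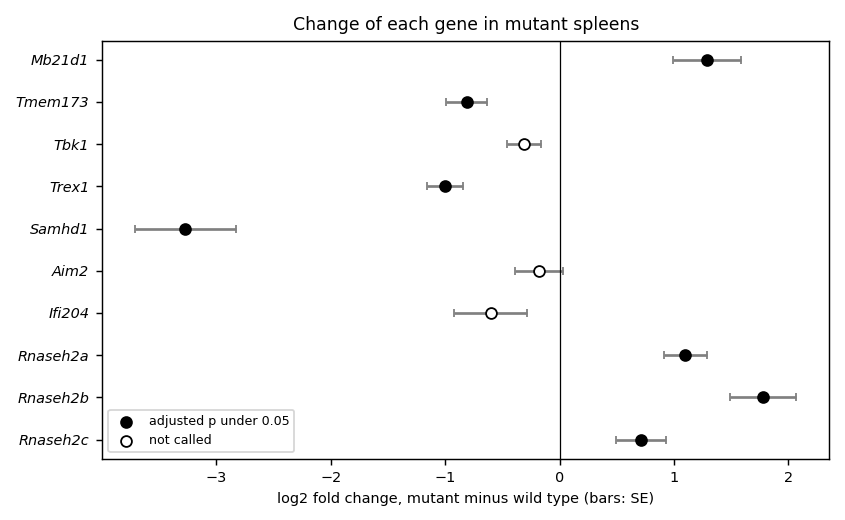
Log2 fold change of each gene, mutant minus wild type (horizontal axis), with the SE as bars; filled points passed an adjusted p under 0.05 and open points did not. Samhd1 lies at -3.27 and Rnaseh2b at 1.78, the ends of the range.

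RNase H2 rose in all 3 subunits, to unequal extents. Rnaseh2a (chromosome 8, 84956609 to 84966011, minus strand), the catalytic subunit, had 51.7, 54.8 and 52.0 CPM across mutants, against 29.0, 29.6, 21.2 and 19.2 CPM in wild type. Its mutant values were the closest together of all 10 genes, with an SD of 3.22% of their mean, and all lay above wild type. The log2 fold change was 1.10 (SE 0.19, adjusted p = 0.00206, edgeR).

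Rnaseh2b (chromosome 14, 62332104 to 62372992, plus strand), the subunit that docks the enzyme on the replication clamp PCNA, had 76.3, 109 and 96.9 CPM across mutants, against 32.8, 38.4, 16.9 and 21.4 CPM in wild type. The lowest mutant was well above the highest wild-type library (1.78, SE 0.29, adjusted p = 0.00179, edgeR). Wild-type spleens 1 and 2 stood above spleens 3 and 4, as for Rnaseh2a.

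Rnaseh2c (chromosome 19, 5601872 to 5602959, plus strand), the third subunit, had 23.0, 14.4 and 16.5 CPM across mutants, against 11.7, 11.9, 8.67 and 11.8 CPM in wild type. The groups were apart by a narrow margin. Its log2 fold change of 0.71 (SE 0.22) passed at adjusted p = 0.0279 in edgeR. It did not pass when any 1 of the wild-type libraries was left out (0.73, 0.75, 0.60 and 0.73 without wild-type 1 to 4; adjusted p = 0.0635, 0.0515, 0.0761 and 0.0511) or with library size alone as the scale (0.47, adjusted p = 0.144, range 0.00363 to 0.144). Kat5 lies 54 bases from it and was not called (0.35, adjusted p = 0.0552).

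The subunits are needed in 1 complex, and their proportions were compared within each library. Counts of Rnaseh2a were 0.677, 0.505 and 0.537 times those of Rnaseh2b in the mutants and 0.882, 0.771, 1.25 and 0.896 times in wild type, a log2 difference of -0.72 without overlap (exact permutation p = 0.0571, adjusted p = 0.0857). Counts of Rnaseh2b were 3.33, 7.53 and 5.86 times those of Rnaseh2c in the mutants and 2.82, 3.22, 1.95 and 1.81 times in wild type. These groups did not overlap either (log2 difference 1.15, exact permutation p = 0.0571, adjusted p = 0.0857). The ratio of Rnaseh2a to Rnaseh2c overlapped between the groups (0.43, exact permutation p = 0.229, adjusted p = 0.275), and was 0.26 without mutant 2.

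Dividing cell markers were set beside the subunits. Relative to the wild-type mean their list median was 1.92, 2.22 and 2.05 log2 units in mutants 1 to 3 and 0.44, 0.93, -0.87 and -0.52 in wild-type 1 to 4. Rnaseh2b stood at 1.48, 1.99 and 1.82 and at 0.26, 0.49, -0.69 and -0.36 in the same libraries, and Rnaseh2a at 1.06, 1.15 and 1.07 and at 0.23, 0.26, -0.22 and -0.37. Both of these and the list had wild-type spleens 1 and 2 above and 3 and 4 below the wild-type mean. Rnaseh2c followed another order, at 1.06, 0.39 and 0.58 across mutants, against 0.08, 0.11, -0.35 and 0.10 for wild-type 1 to 4. It was highest in mutant 1, where the list median was lowest of the mutants by a small margin. The summed level of the list was lowest in mutant 3 (8568 CPM, against 8937 in mutant 1). Rnaseh2c was also above the mean in wild-type 4, where the list median was below it. Erythroid cell markers, with 0 of 12 called higher and 0 lower, also had wild-type spleens 1 and 2 above and 3 and 4 below. Their list median was 1.01, 2.06, -1.61 and -1.31 in wild-type 1 to 4 and 2.25, -0.67 and -0.08 in mutants 1 to 3. The part of cell division and of erythroid cells in the values of the subunits was not tested. Without wild-type 1 and 2, 2 of the 10 members were called higher, Rnaseh2a and Rnaseh2b, beside 2923 of all 15474 genes tested in that setting.

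**Figure D3:**
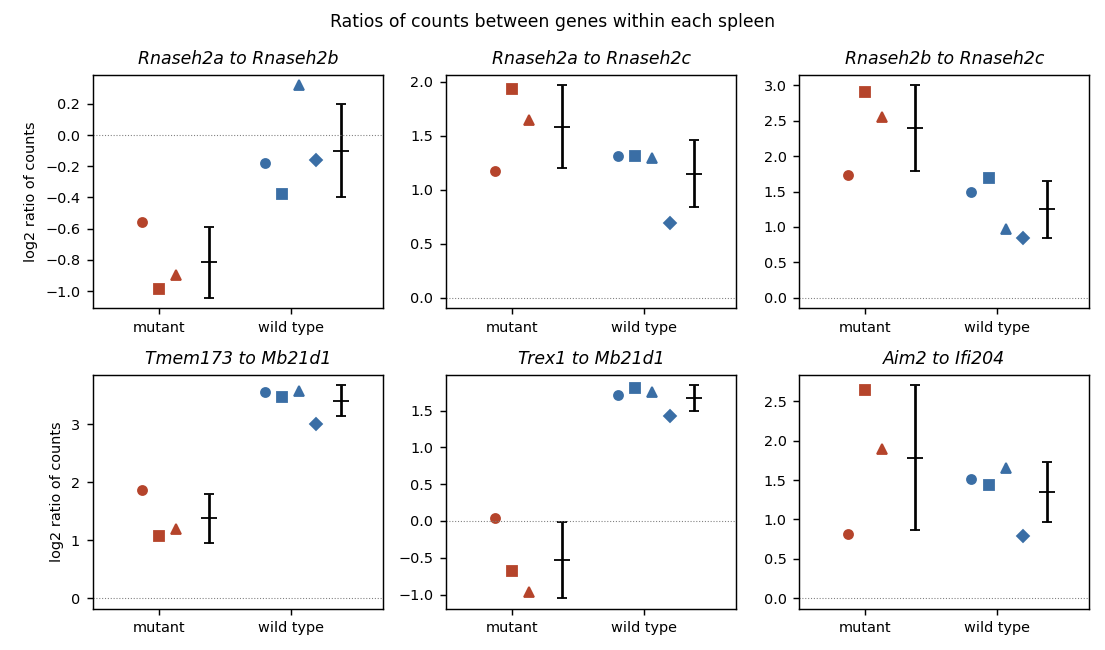
Log2 ratio of counts between genes within each spleen (vertical axes; scales differ between panels), with symbols as for the CPM plot and bars for mean ± SD; the dotted line is an equal number of counts. Tmem173 to Mb21d1 and Trex1 to Mb21d1 differ by -2.02 and -2.20, mutant minus wild type.

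Of 17 tested genes in a list of other nucleic acid clearance genes, 6 rose and 4 fell, with a median of -0.64. Rnaseh1, a single-protein RNase H, rose by 0.64 (SE 0.19). Lig1, the ligase that seals nicks in replication, and Eme1, part of a nuclease for stalled forks, both rose by 2.03 (SE 0.38 and 0.33). Adar, which edits double-stranded RNA, fell to 89.9 ± 13.8 CPM in mutants, against 186 ± 8.91 CPM in wild type (-1.05, SE 0.14).

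The fallers included nucleases that act outside the cell or in lysosomes. Dnase1l3, secreted by macrophages and dendritic cells, had 40.2, 33.7 and 1.33 CPM across mutants, against 223 to 282 CPM in wild type (-3.30, SE 0.93), Pld4 fell by 3.31 (SE 0.67) and Dnase1l1 by 1.51 (SE 0.29). Dnase2a, the lysosomal nuclease, had 50.5, 19.1 and 11.7 CPM across mutants, against 38.6 to 58.3 CPM in wild type and was not called (-0.86, SE 0.46, adjusted p = 0.144, edgeR). Without mutant 1, 7 genes of this list fell.

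Interferon and cytokine genes, the output of the pathway, were mostly lower. Ifnb1, the interferon gene that Tmem173 signalling induces, had 0 counts in the mutant and 2 counts in the wild-type libraries in all, too few for a test. Of 16 tested genes of interferon and cytokine output, 12 fell and 0 rose in edgeR, with a median of -1.81. At an unadjusted p under 0.05, 0 were higher and 13 lower, and DESeq2 and limma-voom also called 0 higher. Stat2, which carries the interferon signal to the nucleus, fell by 1.86 (SE 0.13) and the receptor chain Ifnar1 by 0.86 (SE 0.14). Ccl5, a chemokine of cytotoxic and myeloid cells, had 2.31, 1.55 and 0.163 CPM across mutants, against 78.6 to 109 CPM in wild type (-6.18, SE 0.74). The list median stood at -1.12, -1.91 and -3.42 log2 units in mutants 1 to 3. List medians for monocytes and macrophages and for dendritic cells shared this order, as did the inflammasome list. Plasma cell medians were nearly level, at -2.51, -2.54 and -2.62. Medians for B cell, NK cell, neutrophil, platelet and stromal markers did not share the order. NK cell markers, of which 9 of 10 fell, summed to 4.79 to 17.0 CPM in mutant and 202 to 257 CPM in wild-type spleens. The part of these cell types in the values of Ccl5 and of the interferon and cytokine list was not tested.

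**Figure D4:**
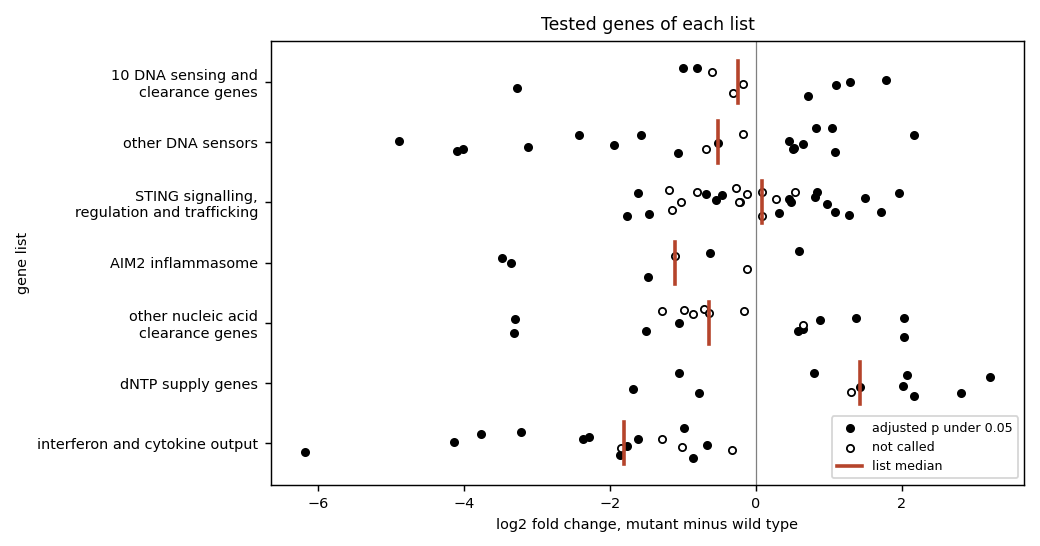
Log2 fold change, mutant minus wild type (horizontal axis), of each tested gene in the 10-gene set and in 6 lists of related genes; filled points passed an adjusted p under 0.05, and red lines are list medians, from -1.81 for interferon and cytokine output to 1.42 for dNTP supply. Vertical scatter within a list has no meaning.

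Levels were set against each other per kilobase of a GENCODE transcript, as CPM per kb. In mutant spleens Rnaseh2b was highest at 62.9 ± 10.9 CPM per kb, above every library of the next gene, Aim2 (31.8 ± 9.46). Rnaseh2a, Tmem173, Tbk1, Rnaseh2c, Samhd1 and Trex1 followed between 25.8 and 13.9 CPM per kb, each overlapping the next as far as Trex1. Ifi204 (8.60 ± 3.41) and Mb21d1 (5.71 ± 2.25) were lowest, overlapped each other and lay below every library of Trex1.

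In wild-type spleens Samhd1 was highest at 154 ± 13.8 CPM per kb, clear of Tmem173 at 43.7 ± 6.22, which overlapped Aim2 at 36.0 ± 3.05. Trex1 (27.7) lay below every library of Aim2. Trex1 and Tbk1 (26.5) overlapped, as did each neighbour in the order Tbk1, Rnaseh2b, Ifi204, Rnaseh2a and Rnaseh2c. Rnaseh2c had 9.79 ± 1.4 CPM per kb. Mb21d1 was lowest in this group too, at 2.34 ± 0.278, below every library of Rnaseh2c. With lengths over all annotated exons the first and last places in both groups were held by the same genes, but places between them changed. In wild type Tbk1, Aim2 and Trex1 then stood level at means of 26.5, 26.4 and 26.2 CPM per kb. In mutants Tmem173 (24.8) passed Aim2 (23.3), Rnaseh2a (17.1) came below Tbk1 (21.4) and Samhd1 (11.4) below Trex1 (13.1). The order between the ends thus depends on the length used.

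**Figure D5:**
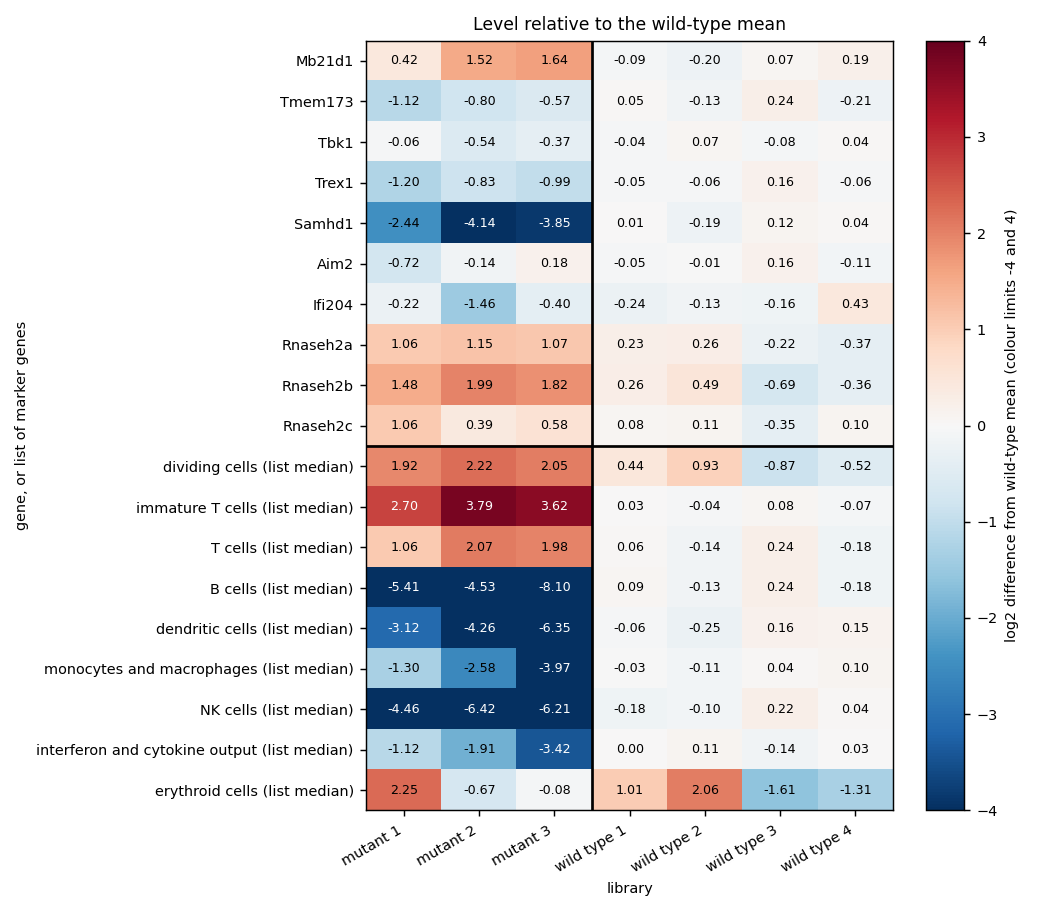
Log2 level of each gene, and median of each list of marker or output genes, relative to the wild-type mean (colour and printed value), in each library (columns, mutant left of wild type). Samhd1 reads -2.44, -4.14 and -3.85 in the mutants, and dividing cell and erythroid markers are above 0 in wild-type 1 and 2.

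Across the 7 libraries, the genes most like each member were described by Pearson's r of log2 CPM among 9647 genes that averaged 10 CPM or more. The points share the genotype split, and 1501 genes had r over 0.9 with Samhd1 and 1675 with Rnaseh2b. Closest to Samhd1 were Il6ra (r = 0.999) and Mast4 (0.998), and closest to Mb21d1 were Prkci (0.998) and Srsf6 (0.997). Rnaseh2b was closest to Orc6 (0.999), a subunit of the origin recognition complex, and Spc24 (0.999), a kinetochore protein. Rnaseh2a was closest to Hdgf (0.998) and Recql4 (0.997), and Rnaseh2c to Cdk6 (0.994) and Ipp (0.992). Trex1 was closest to Spop (0.999) and Hvcn1 (0.998), and Tmem173 to Mob3a and Fmnl1 (0.997 each).

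The number of close matches varied widely between members, with 170 genes at r over 0.9 for Rnaseh2c. There were 38 genes that had r over 0.9 with Ifi204, led by Csgalnact2 (0.970) and Tmbim4 (0.969), and 62 with Aim2, led by Cacfd1 and Terf2ip (0.984 each). For Tbk1 there were 230, led by Kdm7a (0.988) and Wdfy3 (0.985). Between members, r was 0.98 for Rnaseh2a with Rnaseh2b, 0.95 for Tmem173 with Trex1 and 0.01 for Aim2 with Ifi204.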

How the data were processed

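RNA from 7 spleens was sequenced, 3 mutant and 4 wild type. The submitters' processing notes name build mm10 and, with no order, Subread 1.4.6 (featureCounts), TopHat2 2.0.12, edgeR and bcl2fastq 2.17.1.14. Strand use was not given in the sources used here. Raw counts for each gene were deposited by the authors. They also deposited a CPM score per gene, which was the raw count times 1 constant per library. The main test was edgeR 4.0.16's quasi-likelihood test (R 4.3.3) on the counts, scaled by TMM, filtered by filterByExpr and modelled on group alone, adjusted by Benjamini-Hochberg over 15188 genes. SE is the log2 fold change over the square root of F. Ratios between genes used counts plus 0.5 and an exact permutation test. The edgeR fit was checked on simulated counts with known fold changes. The members, lists and tests were chosen with earlier results of these data known. Named genes were the members, fixed role genes, the 4 smallest p-values of each list and called genes against a list's main direction; like genes were the 2 with the highest r. Levels per kb used the GENCODE M21 principal transcript nearest the deposited span. Alternatives covered scaling, filters, DESeq2 1.42.0, limma 3.58.1, the deposited CPM, a replicate block, a stricter threshold and libraries left out. No 2 libraries agreed within sampling noise, and no column was left unused. The depth of 26889712 to 63612532 counts puts 3 counts at 0.0396 to 0.111 CPM, for counting error only. A result of 1 gene among the named ones is not reported here.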

Additional observations from a re-analysis of the deposited data

Results flagged for a closer look

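Among 62 sets of 4 wild-type values examined, 4 values stood far from the other 3 of their group; chance marks about 1 group in 20. Trex1 stood at 33.5 CPM in wild-type spleen 3, against 28.7 to 29.0 CPM in the other 3, still above every mutant. Ifi204 stood at 40.2 CPM in wild-type spleen 4, against 25.3 to 27.4 CPM. Rnaseh2c stood at 8.67 CPM in wild-type spleen 3, against 11.7 to 11.9 CPM. The log2 ratio of Rnaseh2a to Rnaseh2c was 0.694 in wild-type spleen 4, against 1.29 to 1.31 in the others.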

How the results depend on the processing

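Over 19 alternatives, Samhd1, Trex1, Tmem173, Rnaseh2a and Rnaseh2b were called in the same direction in each, and Mb21d1 in each except without wild-type spleens 1 and 2. That setting left 2 members called higher, and 3 lower. The members that rose numbered 3 to 4 and those that fell 3 to 4 with 1 library left out, and the calls over all genes 7370 to 9821. Rnaseh2c was the least stable member, at 0.47 to 0.82 with a call lost in 8 alternatives. Replicate numbers are shared by the groups, but deviations of same-numbered libraries correlated at 0.042, -0.186 and 0.101, so they were not taken as pairs. With the replicate number as a block, 6090 genes were called in place of 8724, 3 members were called higher (Rnaseh2c was not, 0.73, adjusted p = 0.0905) and 3 lower, 5 genes of the STING list rose and 3 fell, and the ratio of Tmem173 to Mb21d1 differed by -2.15. The 6 ratios kept their sign in all 10 of their alternatives. The cause of these shifts was not tested. Depth did not limit the members, which had at least 223 counts in each library.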
